A study of Mus musculus with 8 samples.

Results

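The genes described here carry the insulin and insulin-like growth factor (IGF) signal in heart muscle and its opposite, the programme of muscle wasting. They are 10 genes fixed by name: the receptors Insr and Igf1r, the adaptors Irs1 and Irs2, the transcription factors Foxo1, Foxo3 and Foxo4, the mTOR inhibitor gene Ddit4, and the muscle ubiquitin ligase genes Fbxo32 (atrogin-1) and Trim63 (MuRF1). Each symbol was matched through its Ensembl identifier, and all 10 were found among the 141239 counted features (53465 Ensembl and 87774 NONCODE genes). RNA of whole hearts of mice aged 2 weeks was sequenced in 8 libraries. Every mouse was homozygous for the Lmna knockout (Lmna-/-), on a strain given as mixed. The 3 untreated libraries (Lmna-/- replicates 6, 7 and 8) carry no named vector. The other 5 (Lmna-/-:AAV9 Lmna WT replicates 1 to 5, here AAV9-LMNA) came from knockouts in which wild-type LMNA was put back with an adeno-associated virus of serotype 9, a vector that reaches heart muscle. The promoter of the vector, the cells it reached, the sex of the mice and whether animals were pooled do not appear in the sources used here. A normal heart and an empty vector were not analysed here, so no level below can be placed relative to health, and LMNA and its carrier cannot be told apart. Nothing in the labels says that libraries came from separate animals, so p-values measure the spread between libraries, which may be technical.

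Insulin and IGF1 bind receptor tyrosine kinases, which phosphorylate IRS adaptors and thereby switch on PI3-kinase and AKT. AKT phosphorylates FOXO proteins and holds them out of the nucleus; when the signal weakens, FOXO proteins enter the nucleus and switch on genes of proteolysis and autophagy, among them Fbxo32 and Trim63, and also the genes of the insulin receptor and IRS2. FOXO activity is set largely on the protein, which RNA counts do not show. FOXO factors have been described as active in hearts that lack lamin A/C, which makes their RNA and that of their targets a natural question in this comparison.

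Promoter sequences were searched for words known as FOXO and steroid receptor elements. Of the 10 genes, 7 had an entry in the RefSeq promoter table (GRCm38.p6, 250 bases before to 50 after the start); Foxo4, Insr and Fbxo32 had none. A script searched both strands for GTAAACA (the FOXO binding element), CAAAACAA (the insulin response element, another FOXO site), and the arms GNACA and TGTNC spaced by any 3 bases (the element of the glucocorticoid receptor and its relatives). Matches were found in 3 of the 7 windows, those of Irs1, Irs2 and Trim63, and none in the windows of Foxo1, Foxo3, Igf1r and Ddit4. They are printed because they hold the searched words, in capitals, on the strand of the gene, 5′ to 3′: Trim63 from chr4:134314870-134315169 (plus strand), Irs1 from chr1:82291390-82291689 (minus strand) and Irs2 from chr8:11008880-11009179 (minus strand).
Trim63: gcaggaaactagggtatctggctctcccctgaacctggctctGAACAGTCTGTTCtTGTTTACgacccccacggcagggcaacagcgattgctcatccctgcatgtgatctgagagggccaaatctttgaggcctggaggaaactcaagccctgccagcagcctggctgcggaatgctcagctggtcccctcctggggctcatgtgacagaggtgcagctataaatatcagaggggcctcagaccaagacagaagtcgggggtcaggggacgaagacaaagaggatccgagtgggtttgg
Irs1: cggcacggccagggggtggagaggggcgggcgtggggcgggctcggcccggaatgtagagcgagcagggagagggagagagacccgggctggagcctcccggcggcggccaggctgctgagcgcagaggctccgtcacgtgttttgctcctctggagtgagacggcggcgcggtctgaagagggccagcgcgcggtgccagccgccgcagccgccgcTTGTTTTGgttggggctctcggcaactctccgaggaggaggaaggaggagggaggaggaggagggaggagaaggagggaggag
Irs2: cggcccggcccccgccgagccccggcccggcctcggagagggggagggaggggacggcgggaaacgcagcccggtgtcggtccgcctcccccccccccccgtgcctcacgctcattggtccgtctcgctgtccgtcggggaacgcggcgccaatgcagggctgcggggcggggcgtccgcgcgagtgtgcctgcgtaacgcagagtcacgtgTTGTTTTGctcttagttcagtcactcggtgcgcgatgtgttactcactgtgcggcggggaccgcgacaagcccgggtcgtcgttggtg

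In the Trim63 window the steroid receptor element GAACAGTCTGTTC began 208 bases before the start, and the FOXO element (TGTTTAC, read from the other strand) began 194 bases before it, with 1 base between them. Irs1 and Irs2 each held TTGTTTTG, the other strand of CAAAACAA, beginning 33 and 38 bases before the start. Of 32851 promoters of that length, 3.65% held GTAAACA, 2.51% CAAAACAA and 0.475% the steroid receptor arms, none of these words overlapping another in the windows shown. A match describes the letters, not a site in use, and none of these 3 genes was called in the comparison below.

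The libraries held 21439956 to 26492443 counts on features, and the 10 genes held between 133 (Foxo1) and 12119 (Insr) raw reads in a library. Lmna checked the labels: 46.4, 68.7 and 32.3 CPM (counts scaled to library sizes adjusted by TMM) in untreated replicates 6, 7 and 8, and 227 to 747 in the AAV9-LMNA libraries. Markers of heart muscle dominated, with 49056 to 74978 CPM summed over 10 genes in untreated and 61053 to 73345 in AAV9-LMNA libraries. The libraries also differed in make-up. Untreated libraries had 19.9% ± 4.19 (SD, n = 3) of reads outside annotated features (24.7% in replicate 6), and AAV9-LMNA libraries 12.4% ± 0.364 (SD, n = 5). The exact permutation test (two-sided) gave 0.0179, the lowest p possible with 56 splits, or p = 0.0238 after adjustment for 4 measures. Long transcripts stood higher in untreated libraries: the slope of a coding gene's log2 CPM, relative to its mean over libraries, on its log2 length was 0.128 ± 0.0483 (SD, n = 3) against -0.0768 ± 0.016 (SD, n = 5), with the same p-values. In a bulk sample, fewer cells of a type and less RNA per cell cannot be told apart.

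Of the 10 genes, 4 fell in AAV9-LMNA hearts, 0 rose and 6 did not pass (quasi-likelihood test of edgeR over 26717 features, with p-values adjusted by Benjamini-Hochberg and called under 0.05). The genes that fell were both receptors, Insr and Igf1r, with Foxo1 and Ddit4. Over all features 15% were called lower and 10.6% higher; over the 13785 coding genes tested 6.07% were lower and 18.4% higher. The median log2 fold change (AAV9-LMNA over untreated) of the 10 was -0.23, beside -0.03 for all features and 0.21 for coding genes. The groups did not overlap in the same 4 genes and overlapped in the other 6; 16% of all features lay lower without overlap. All 10 passed the filter on low counts. Without AAV9-LMNA replicate 2, 4 or 5, the receptors alone were called, 2 genes in place of 4. Those fits called 4216 to 4868 of all features in place of 6858.

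**Figure D1:**
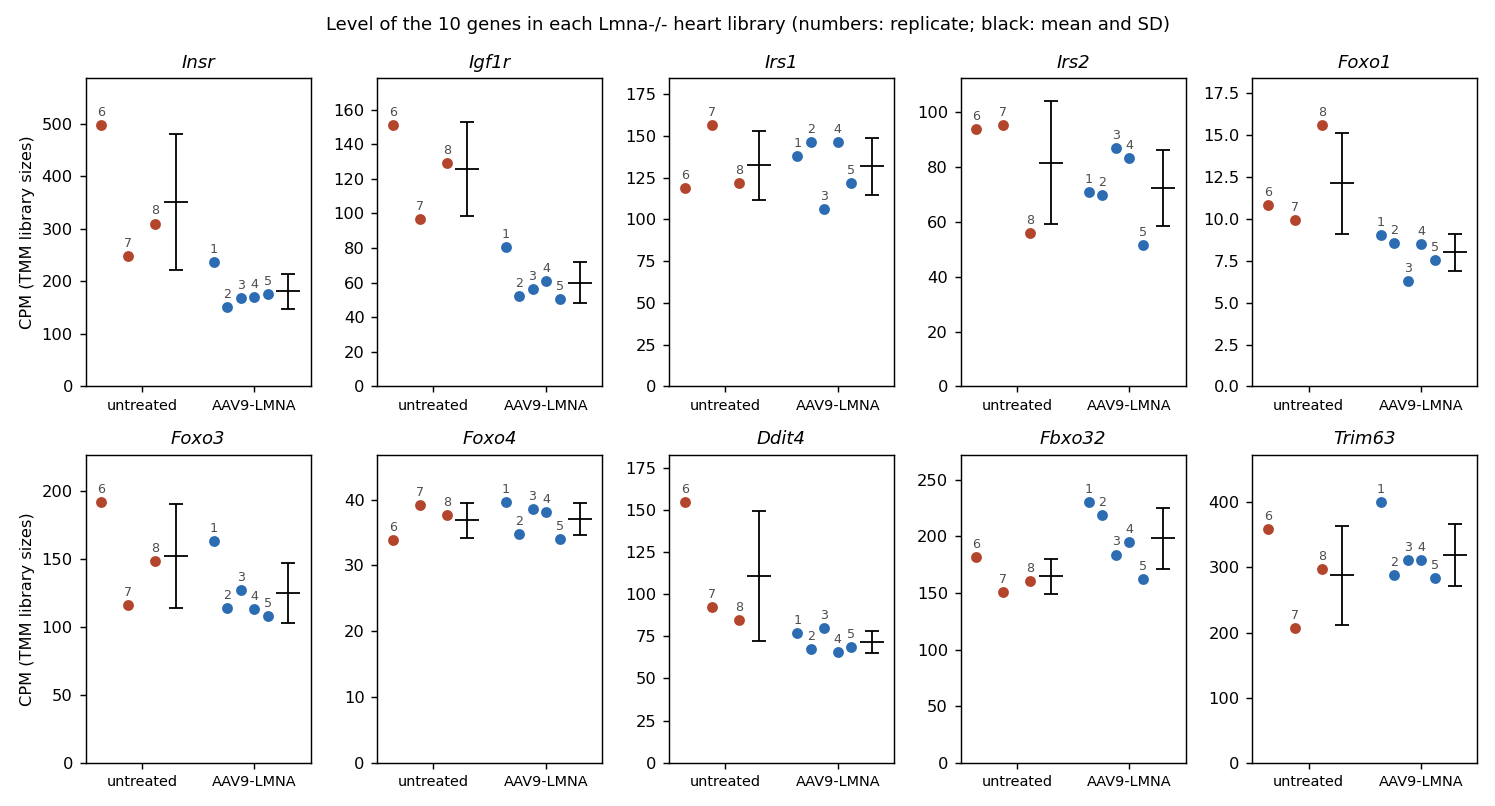
CPM of each gene (y axis, from 0) in the 3 untreated (red) and 5 AAV9-LMNA (blue) libraries, numbered by replicate, with the mean and SD in black. Insr, Igf1r, Foxo1 and Ddit4 lie lower in every AAV9-LMNA library than in any untreated one, and the other 6 genes overlap.

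In the test over all features the receptors had the largest fold changes of the 10 genes, while after the length and GC correction Ddit4 had (-1.01). Igf1r (ENSMUSG00000005533, GRCm38 chromosome 7, 67952827 to 68233668, plus strand), the receptor of IGF1 and IGF2, stood at 151, 96.8 and 129 CPM in untreated replicates 6, 7 and 8 and at 80.3, 52.4, 56.1, 61.0 and 50.3 CPM in AAV9-LMNA replicates 1 to 5. Replicate 6 was the highest untreated library and replicate 1 the highest AAV9-LMNA library, and the lowest untreated value stood above it. The means were 126 ± 27.2 CPM (SD, n = 3) and 60.0 ± 12 CPM (SD, n = 5); the log2 fold change was -1.06 (SE 0.17, edgeR adjusted p = 0.00381). The call held in all 8 fits with 1 library left out, and it held with Ensembl features scaled and tested alone (log2 fold change -1.28) and after a correction for transcript length and GC content (-0.84, edgeR adjusted p = 0.0343). It was lost with untreated replicates 6 and 8 both left out (-0.68, edgeR adjusted p = 0.125), a fit in which untreated replicate 7 stands alone and is taken to vary like the other group.

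Insr (ENSMUSG00000005534, chromosome 8, 3122061 to 3279617, minus strand), the insulin receptor gene and itself a reported FOXO target, held 497, 248 and 310 CPM in untreated replicates 6, 7 and 8. In AAV9-LMNA replicates 1 to 5 it held 237, 152, 168, 171 and 177 CPM. Untreated replicate 6 stood far above the other 7 libraries, and untreated replicate 7 lay just above AAV9-LMNA replicate 1. The means were 352 ± 130 CPM (SD, n = 3) and 181 ± 32.9 CPM (SD, n = 5); the log2 fold change was -0.96 (SE 0.21, edgeR adjusted p = 0.0122). No single library ended the call, but without untreated replicate 6 the log2 fold change of Insr was -0.61 (edgeR adjusted p = 0.0279). The call was lost after the length and GC correction (-0.85, edgeR adjusted p = 0.0752) and without untreated replicates 6 and 8 (-0.44, edgeR adjusted p = 0.239).

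The receptors were also compared within each library. The ratio of Igf1r to Insr CPM, which no library scaling can change, was 0.303, 0.390 and 0.416 in untreated replicates 6, 7 and 8 and 0.285 to 0.358 in the AAV9-LMNA libraries. Its means of 0.37 ± 0.0589 (SD, n = 3) and 0.332 ± 0.0281 (SD, n = 5) differed by less than the spread among untreated libraries. Per length, Insr stood above Igf1r in both groups, with 37.6 and 11 CPM per kb of the longest transcript in untreated and 19.3 and 5.26 in AAV9-LMNA hearts.

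The adaptors that carry the receptor signal inward were not called. Irs1 (ENSMUSG00000055980, chromosome 1, 82233101 to 82291416, minus strand) stood at 119, 156 and 122 CPM in untreated replicates 6, 7 and 8 and at 138, 146, 106, 146 and 122 CPM in AAV9-LMNA replicates 1 to 5. The groups overlapped throughout, and the log2 fold change was -0.01 with a 95% interval of -0.30 to 0.28 (edgeR adjusted p = 0.97). The level of Irs1 is uncertain, because 30.9% of its exonic bases are shared with Gm9747, an annotated gene on the other strand, and the counting ignored strand.

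Irs2 (ENSMUSG00000038894, chromosome 8, 10984681 to 11008458, minus strand), the adaptor more closely tied to FOXO, held 93.8, 95.1 and 55.7 CPM in untreated and 70.9, 69.6, 86.9, 83.0 and 51.7 CPM in AAV9-LMNA libraries. Each group had 1 low library, untreated replicate 8 and AAV9-LMNA replicate 5, and the groups overlapped. Its log2 fold change was -0.17 with a 95% interval of -0.62 to 0.27 (edgeR adjusted p = 0.539), an interval that includes both zero change and a fall of the size estimated for Foxo1. Whether the receptors changed more than the adaptors was not tested.

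Of the FOXO genes, Foxo1 fell, the least abundant of the 3. Foxo1 (ENSMUSG00000044167, chromosome 3, 52268336 to 52353221, plus strand) stood at 10.8, 9.94 and 15.6 CPM in untreated replicates 6, 7 and 8 and at 9.02, 8.56, 6.31, 8.50 and 7.56 CPM in AAV9-LMNA replicates 1 to 5, from 133 to 343 raw reads per library. Untreated replicate 8 was the highest library, and the gap between the groups was that between untreated replicate 7 and AAV9-LMNA replicate 1. Means of 12.1 ± 3.03 CPM (SD, n = 3) and 7.99 ± 1.08 CPM (SD, n = 5) gave a log2 fold change of -0.60 (SE 0.18, edgeR adjusted p = 0.034).

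The call of Foxo1 rested on several libraries. It was lost without untreated replicate 8 (log2 fold change -0.37, edgeR adjusted p = 0.16) and without AAV9-LMNA replicate 2, 3, 4 or 5 (-0.63, -0.53, -0.63 and -0.59, edgeR adjusted p = 0.0584, 0.0738, 0.0566 and 0.0665). It was also lost after the length and GC correction of Foxo1 (-0.47, edgeR adjusted p = 0.124) and without untreated replicates 6 and 8 (-0.30, edgeR adjusted p = 0.41). Untreated replicate 8 also held 1054 CPM summed over 6 atrial markers, against 90.8 and 162 CPM in the other untreated and 104 to 228 CPM in the AAV9-LMNA libraries; the part of atrial tissue in the Foxo1 level was not tested.

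Foxo3 (ENSMUSG00000048756, chromosome 10, 42181841 to 42276755, minus strand), the FOXO gene most closely tied to muscle atrophy, held 192, 116 and 149 CPM in untreated and 163, 114, 127, 113 and 108 CPM in AAV9-LMNA libraries. The highest library of each group, untreated replicate 6 and AAV9-LMNA replicate 1, set most of its spread. The log2 fold change was -0.28 with a 95% interval of -0.66 to 0.09 (edgeR adjusted p = 0.231), -0.07 without untreated replicate 6, and 0.12 without untreated replicates 6 and 8.

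Foxo4 (ENSMUSG00000042903, chromosome X, 101254528 to 101260873, plus strand) was the steadiest of the 10 genes in the test over all features. It held 33.9, 39.1 and 37.6 CPM in untreated and 39.7, 34.7, 38.5, 38.1 and 34.1 CPM in AAV9-LMNA libraries. Its log2 fold change of 0.01 had a 95% interval of -0.21 to 0.22 (edgeR adjusted p = 0.966), so a change of the size estimated for Foxo1 lies outside the interval of Foxo4. With Ensembl features alone the estimate was -0.19 and after the length and GC correction -0.22, neither called (edgeR adjusted p = 0.171 and 0.157). The 95% interval after the correction, -0.42 to -0.02, lay below 0.

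Per kb, Foxo3 made up most of the FOXO RNA. Of the CPM per kb of Foxo1, Foxo3 and Foxo4 together, Foxo3 took 70.1%, 55.7% and 61.3% in untreated replicates 6, 7 and 8 and 55.9 to 63.7% in AAV9-LMNA libraries. Foxo1 took 3.12, 3.76 and 5.08% in untreated and 2.31 to 3.45% in AAV9-LMNA libraries, and Foxo4 the rest. These shares overlapped between the groups for all 3 genes. Foxo6, named after its values were seen, is not counted in them. It held 1.06 CPM per kb in untreated and 1.24 in AAV9-LMNA hearts, beside 1.40 and 0.922 for Foxo1.

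Ddit4 (ENSMUSG00000020108, chromosome 10, 59949669 to 59951834, minus strand), also called REDD1, encodes a stress-induced inhibitor of mTOR complex signalling. Its levels were 155, 92.4 and 84.4 CPM in untreated replicates 6, 7 and 8 and 77.0, 67.2, 80.0, 65.5 and 68.5 CPM in AAV9-LMNA replicates 1 to 5. The AAV9-LMNA libraries lay close together, and untreated replicate 6 stood far above the other untreated libraries. The means were 111 ± 38.5 CPM (SD, n = 3) and 71.6 ± 6.41 CPM (SD, n = 5); the log2 fold change was -0.63 (SE 0.17, edgeR adjusted p = 0.0262).

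Without untreated replicate 6 the change of Ddit4 shrank to -0.29 and its call was lost (edgeR adjusted p = 0.0734). The call of Ddit4 was also lost without AAV9-LMNA replicate 2, 4 or 5 (-0.61, -0.61 and -0.62, edgeR adjusted p = 0.0603, 0.0584 and 0.0558) and without untreated replicates 6 and 8 (-0.36, edgeR adjusted p = 0.0929). In contrast to Insr and Foxo1, Ddit4 is short (1755 bases). The length and GC correction was made on Ensembl features, so its estimates are set beside those of Ensembl features alone. Ddit4 moved from -0.85 there to -1.01 after the correction (edgeR adjusted p = 0.0276). Insr moved from -1.18 to -0.85 and Foxo1 from -0.79 to -0.47. In the corrected fit 4.98% of features were called lower, and of the 10 genes Igf1r and Ddit4. With Ensembl features alone, where 8.57% of features were lower, the same 4 genes were called as in the test over all features.

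**Figure D2:**
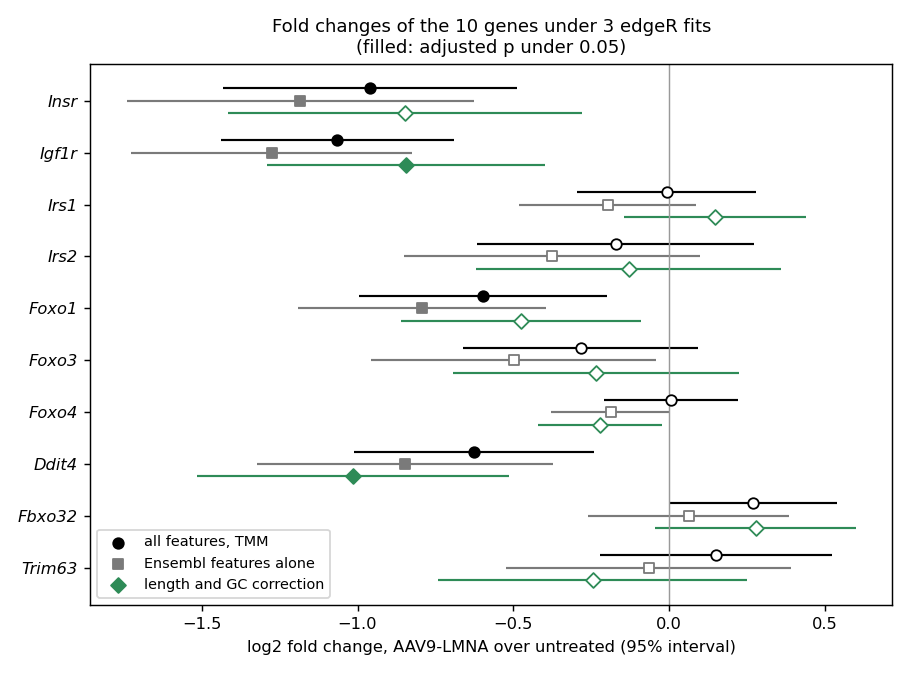
Log2 fold change of each gene, AAV9-LMNA over untreated (x axis), with its 95% interval in 3 edgeR fits: all features with TMM scaling (black), Ensembl features alone (grey) and after the length and GC correction (green). Filled symbols had an adjusted p under 0.05; Igf1r and Ddit4 are filled in all 3.

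Neither gene of the atrophy ligases was called. Fbxo32 (ENSMUSG00000022358, chromosome 15, 58175879 to 58214932, minus strand), whose product is the F-box subunit of a muscle ubiquitin ligase, held 182, 151 and 161 CPM in untreated and 231, 219, 184, 195 and 163 CPM in AAV9-LMNA libraries. All but AAV9-LMNA replicate 5 lay above every untreated library. The means were 165 ± 15.8 CPM (SD, n = 3) and 198 ± 27.2 CPM (SD, n = 5), and the log2 fold change was 0.27, its 95% interval running from -0.0016 to 0.54 (edgeR adjusted p = 0.125). With no filter on low counts Fbxo32 was called higher (0.31, edgeR adjusted p = 0.0382); with Ensembl features alone the estimate was 0.06.

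Trim63 (ENSMUSG00000028834, chromosome 4, 134315120 to 134329629, plus strand), which encodes a RING ubiquitin ligase of the sarcomere, held 358, 207 and 297 CPM in untreated and 401, 289, 312, 311 and 284 CPM in AAV9-LMNA libraries. The highest library was AAV9-LMNA replicate 1 and the lowest untreated replicate 7, and the groups overlapped. Its log2 fold change was 0.15 with a 95% interval of -0.22 to 0.52 (edgeR adjusted p = 0.523). Its sign depended on the scaling, with -0.06 for Ensembl features alone and -0.25 after the length and GC correction, neither called. With untreated replicates 6 and 8 left out, Trim63 was called higher (0.63, edgeR adjusted p = 0.0476).

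Skeletal muscle, which also expresses both ligases, was nearly absent from the samples by its markers: 10 genes, among them Myh1, Myh2, Myh4 and Actn3, summed to 5.03 to 12.4 CPM in untreated and 5.84 to 8.35 CPM in AAV9-LMNA libraries. The ratio of Trim63 to Fbxo32 CPM was 1.97, 1.37 and 1.85 in untreated and 1.32 to 1.74 in AAV9-LMNA libraries, overlapping between the groups.

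Ordered by level per kb in untreated hearts, Trim63 led with 153 ± 40.2 CPM per kb (SD, n = 3), followed by Ddit4 (63.0 ± 21.9), Insr (37.6 ± 13.9), Fbxo32 (23.6 ± 2.26), Foxo3 (22.3 ± 5.57), Irs1 (14.5 ± 2.27), Irs2 (12.9 ± 3.54), Foxo4 (11.7 ± 0.85), Igf1r (11 ± 2.38) and Foxo1 (1.40 ± 0.349). Trim63 lay above Ddit4, Insr above Fbxo32 and Igf1r above Foxo1 in every pair of untreated libraries, while all other neighbours in that order overlapped. In AAV9-LMNA hearts Trim63 led with 169 ± 25.1 CPM per kb (SD, n = 5), Ddit4 followed with 40.8 ± 3.65, and Fbxo32 (28.4 ± 3.90) stood above Insr (19.3 ± 3.52), their ranges overlapping.

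Single libraries stood out across the 10 genes. Untreated replicate 6 was the highest untreated library for 6 of them (Foxo3, Insr, Igf1r, Ddit4, Fbxo32 and Trim63), and untreated replicate 7 the lowest for 6 (Foxo1, Foxo3, Insr, Igf1r, Fbxo32 and Trim63). AAV9-LMNA replicate 1 was the highest of its group for 7 genes, all but Irs1, Irs2 and Ddit4, and replicate 5 the lowest for 6. Beside its 24.7% of reads outside features, untreated replicate 6 held 1132 CPM over 6 fibroblast markers and 116 CPM over 6 macrophage markers, against 2196 to 3252 CPM and 207 to 388 CPM in the other 7 libraries. Some markers also moved with the group. The sum over 6 adipocyte markers was 18.1 to 31.9 CPM in untreated and 36.6 to 44.4 CPM in AAV9-LMNA libraries, without overlap. Of these 6 only 1, Cidea, passed the filter on low counts, and 1 had no reads in any library. The adipocyte marker Cidea and the endothelial markers Tie1 and Egfl7 were called higher (log2 fold changes 0.76, 0.67 and 0.64, edgeR adjusted p = 0.00839, 0.0111 and 0.0145), and the atrial markers Myl7, Myl4 and Bmp10 lower. With Ensembl features alone Cidea kept its call and Tie1 and Egfl7 lost theirs. After the length and GC correction only Tie1 was called higher. The atrial calls, 3 of 5 atrial markers tested, held in both fits. Sums over 6 atrial markers overlapped, however, with 162, 90.8 and 1054 CPM in untreated replicates 6, 7 and 8 and 104 to 228 CPM in AAV9-LMNA libraries. The median log2 fold change of the 5 tested was -4.91, and -0.42 without untreated replicates 6 and 8. Sums over 6 endothelial markers overlapped, with 874 to 1410 CPM in untreated and 1258 to 1663 CPM in AAV9-LMNA libraries. The part of these differences in the results was not tested.

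**Figure D3:**
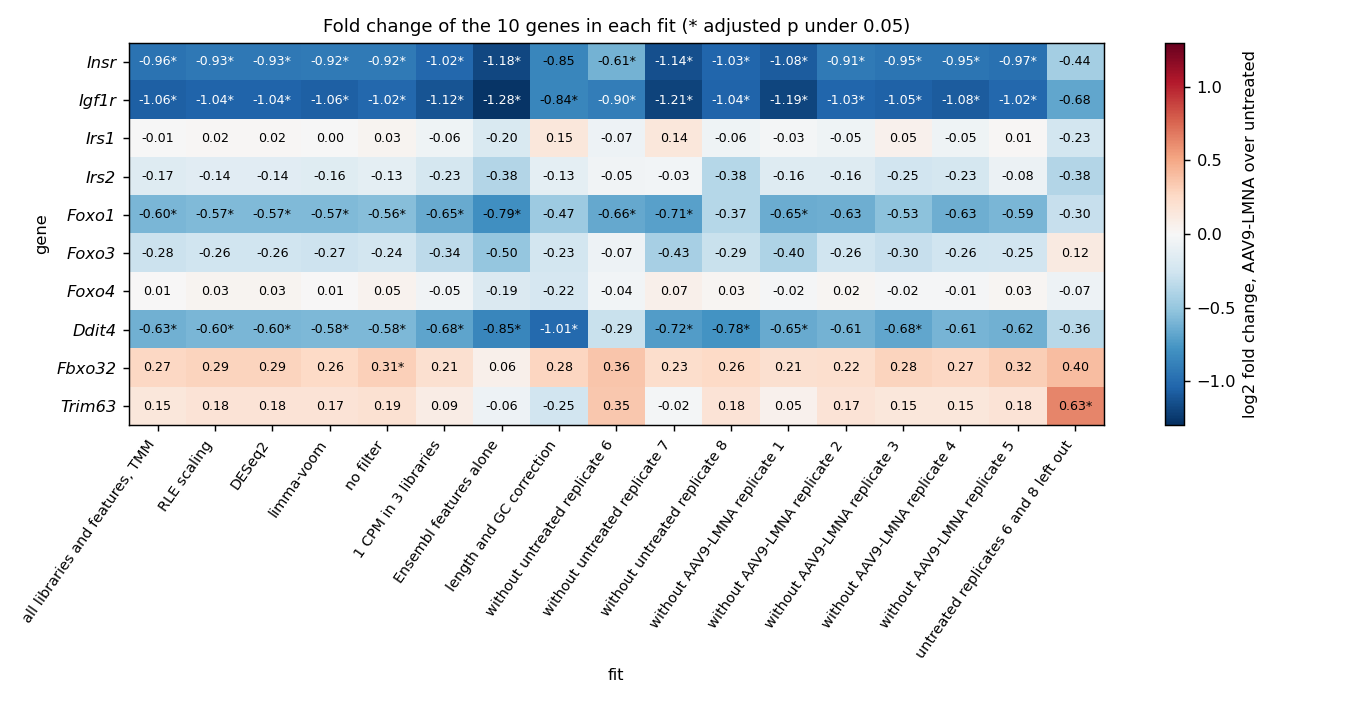
Log2 fold change of each gene (rows) in the test over all libraries and features and in 16 alternative fits (columns), printed and coloured from blue (lower in AAV9-LMNA) to red (higher), with a star for an adjusted p under 0.05. Insr and Igf1r stay starred in all 8 fits with 1 library left out, Foxo1 in 3 of them and Ddit4 in 4.

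Transcript length moved with the fold changes of the whole library and therefore stands beside these results. Of coding genes with a log2 CPM above 1, split in 10 classes by the length of the longest transcript, the shortest (up to 1573 bases) had a median log2 fold change of 0.44 and the longest (from 7068 bases) one of -0.15, with 25.5% of the longest class called lower. Foxo1, Insr, Igf1r and Irs1 belong to the longest class, with transcripts of 8665, 9355, 11409 and 9144 bases. Foxo1, Insr and Igf1r lay below the lower quartile of that class (-0.42), and Irs1 above its median. Ddit4 and Trim63 (1886 bases) are among genes of 1574 to 2128 bases, whose median was 0.36 and lower quartile 0.18, and both lay below that quartile. Fbxo32, Foxo3 and Irs2 are in the class of 5547 to 7067 bases, with a median of 0.03 and a lower quartile of -0.20, which Foxo3 was below. Foxo4 (3162 bases) also lay below the lower quartile of its class, 0.06.

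**Figure D4:**
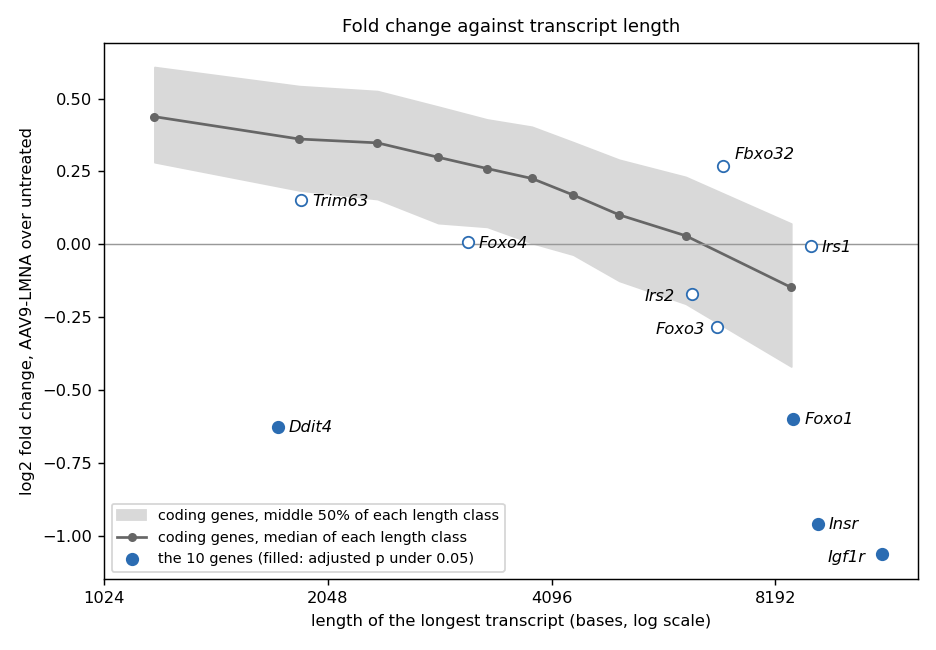
Log2 fold change (y axis) against the length of the longest transcript (x axis, log scale) for the 10 genes in blue, filled where the adjusted p was under 0.05. The grey line and band give the median and the middle 50% of coding genes in 10 length classes, the median falling from 0.44 to -0.15. Classes are drawn at their median length, so the band ends at 8609 bases. Of the 4 filled genes Ddit4 lies below the band, as do the open Foxo4 and Trim63, and Foxo3 lies at its lower edge. Foxo1, Insr and Igf1r lie to the right of its end, lower than its last lower edge (-0.42).

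Around the receptors, 22 genes of insulin and IGF ligands, receptors and adaptors were tested, 4 of them among the 10 genes. Of the 22, 6 fell, 1 rose and 15 were not called (27.3% lower, beside 6.07% of coding genes), with a median log2 fold change of -0.08. That share includes Insr and Igf1r. Of the 18 genes outside the 10, 4 fell and 1 rose. Beyond Igf1r and Insr, the genes that fell were Cblb (-0.74, edgeR adjusted p = 0.00694), a ubiquitin ligase gene, and Sos1 (-0.52, edgeR adjusted p = 0.00848), the exchange factor that links receptors to Ras. The remaining calls, named after their values were seen, were Igfbp3 (-1.38, edgeR adjusted p = 0.0234), an IGF-binding protein gene, and the adaptor gene Sh2b2 (-0.74, edgeR adjusted p = 0.0346). Grb14, an inhibitory receptor adaptor gene, rose by 0.44 (edgeR adjusted p = 0.0335). Igf1r, Insr and Sos1 (8436 bases) belong to the longest class of transcripts, of which 25.5% were called lower. Cblb (6648 bases) is in the class of 5547 to 7067 bases, of which 11.8% were. Igfbp3 and Sh2b2 are shorter, with 2421 and 2848 bases.

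Cblb and Sos1 kept their calls in all 8 fits with 1 library left out, with Ensembl features alone and after the length and GC correction, and lost them without untreated replicates 6 and 8. Grb14 lost its call in both of those fits (0.26 and 0.20) and without untreated replicate 6 (0.29) or AAV9-LMNA replicate 1, 2, 3 or 4 (0.45, 0.43, 0.44 and 0.40). Igfbp3 lost its call without untreated replicate 6 or 8 or AAV9-LMNA replicate 2, and Sh2b2 in 6 of 8 such fits. Without AAV9-LMNA replicate 2, 4 genes of the list were called in place of 7, beside 4216 of all features in place of 6858. The ligand gene Igf1, named after its values were seen, was not called, with 13.3, 37.1 and 50.1 CPM in untreated and 36.3 to 42.0 CPM in AAV9-LMNA libraries.

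Downstream, 35 genes of PI3-kinase, AKT and mTOR signalling were tested; 5 rose, 3 fell and 27 were not called (14.3% higher and 8.57% lower, beside 18.4% and 6.07% of coding genes), with a median log2 fold change of 0.01. The balance of calls depended on the scaling: with Ensembl features alone 1 rose (Mlst8) and 7 fell, with a median of -0.19, and after the length and GC correction 2 rose (Mlst8 and Eif4e) and 3 fell. The falls added with Ensembl features alone, named after their values were seen, were those of Pdpk1, Phlpp1, Rictor and Ywhab. Eif4ebp2, which encodes a repressor of cap-dependent translation that mTOR switches off, fell from 34.1 ± 1.78 CPM (SD, n = 3) to 15.5 ± 1.10 CPM (SD, n = 5); the log2 fold change was -1.14 (SE 0.10, edgeR adjusted p = 0.000229). Gsk3b, a kinase gene of the AKT branch that restrains glycogen synthesis, fell from 122 ± 4.31 to 70.1 ± 6.35 CPM (log2 fold change -0.80, edgeR adjusted p = 0.00103). Both calls held in all 16 alternative fits. Rptor, the scaffold of mTOR complex 1, had a log2 fold change of -0.33 (edgeR adjusted p = 0.0385) and kept its call in 1 of 8 fits without a library, that without untreated replicate 7.

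Of the genes that rose, Eif4e, the cap-binding protein gene, had a log2 fold change of 0.55, Mlst8, an mTOR complex subunit gene, 0.79, Akt1s1 (PRAS40) 0.47 and Mapkap1 (SIN1) 0.38 (edgeR adjusted p = 0.0118, 0.0119, 0.0193 and 0.0273); Rheb, named after its value was seen, had 0.35. Mlst8 stayed called in 15 of 16 fits, but shares 22.5% of its exonic bases with the opposite-strand gene Bricd5. Eif4e and Mlst8 were called in all 8 fits with 1 library left out, Akt1s1 not without untreated replicate 8, Mapkap1 in 3 of 8 such fits and Rheb in 2. With Ensembl features alone Eif4e (0.37, edgeR adjusted p = 0.0537), Akt1s1 (0.28), Mapkap1 (0.19) and Rheb (0.16) lost their calls, and after the length and GC correction Akt1s1, Mapkap1 and Rheb did. The count of 8 called genes was 5 without untreated replicate 8 or AAV9-LMNA replicate 2, 3, 4 or 5. In those fits 4216 to 5143 of all features were called in place of 6858. The AKT genes Akt1 and Akt2, named after their values were seen, were not called, with log2 fold changes of -0.10 and 0.16.

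Of 32 tested FOXO partners and reported targets, 5 rose, 3 fell and 24 were not called (15.6% higher and 9.38% lower, near the 18.4% and 6.07% of coding genes), with a median log2 fold change of 0.12. Sod2 and Prdx3, mitochondrial antioxidant genes, rose by 0.45 and 0.51 (edgeR adjusted p = 0.00704 and 0.01), G6pc3, a glucose-6-phosphatase gene, by 0.48, and Gadd45a, a growth arrest gene, by 0.76 (edgeR adjusted p = 0.00966 and 0.0125). The cyclin gene Ccng2, named after its value was seen, rose by 0.45. Ulk1, the kinase gene that starts autophagy, fell by 0.50, and Trp53inp2, an autophagy gene, fell by 0.36 (edgeR adjusted p = 0.0159 and 0.0249); the third was Insr.

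With Ensembl features alone 1 gene of the list rose and 5 fell, and after the length and GC correction 0 rose and 2 fell. After the correction none of the 5 rises was called, and with Ensembl features alone Gadd45a kept its call and Sod2, Prdx3, G6pc3 and Ccng2 lost theirs. Ulk1 lost its call after the correction (-0.52, edgeR adjusted p = 0.0602). Named after their values were seen, Rbl2 was called lower with Ensembl features alone, and Cited2 there and after the correction. Gadd45a shares 19.1% of its exonic bases with an opposite-strand noncoding gene. Trp53inp2 lost its call without untreated replicate 8 or AAV9-LMNA replicate 3, Ccng2 without untreated replicate 8 or AAV9-LMNA replicate 2 or 3, and the others in no fit without 1 library. Without untreated replicate 7, 15 of the 32 were called, in a fit that called 10033 of 28153 features in place of 6858 of 26717.

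Well-known FOXO targets outside these calls, named after their values were seen, varied among untreated libraries. Pdk4, the kinase gene that shuts off glucose oxidation, held 140 CPM in untreated replicate 6, against 954 CPM or more in each of the other 7 libraries (log2 fold change 0.72, edgeR adjusted p = 0.376). Klf15, a transcription factor gene of amino acid metabolism, went the other way in untreated replicate 6, with 130.5 CPM against 40.7 to 83.3 CPM elsewhere (-0.78, edgeR adjusted p = 0.0828). Txnip, a regulator of glucose uptake, held 172, 204 and 450 CPM in untreated and 419 to 977 CPM in AAV9-LMNA libraries (1.07, edgeR adjusted p = 0.0799). DESeq2 called Klf15 and Txnip, and limma-voom called Txnip.

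Beside Fbxo32 and Trim63, 32 genes of muscle ubiquitin ligases and proteolysis, including both, were tested. Of the 32, 5 rose, 2 fell and 25 were not called (15.6% higher and 6.25% lower, near the 18.4% and 6.07% of coding genes), with a median log2 fold change of 0.21, the same as that of coding genes. With Ensembl features alone 2 rose and 5 fell, and after the length and GC correction 2 rose and 3 fell. Trim55 (MuRF2), the relative of Trim63, fell from 106 ± 10.4 CPM (SD, n = 3) to 78.4 ± 3.46 CPM (SD, n = 5; log2 fold change -0.43, edgeR adjusted p = 0.00919). Psmd11, a proteasome subunit gene, fell by 0.49 (edgeR adjusted p = 0.0152). Capns1, the small calpain subunit gene, rose by 0.70 (edgeR adjusted p = 0.00249), the proteasome gene Psma1 by 0.49 and the chaperone-linked ligase gene Stub1 by 0.33 (edgeR adjusted p = 0.00732 and 0.0262). Cast, the calpain inhibitor gene named after its value was seen, rose by 0.34.

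Capns1 and Psmd11 kept their calls in all 16 alternative fits and Trim55 in 15, all but that without untreated replicates 6 and 8. Stub1 lost its call without untreated replicate 8 or AAV9-LMNA replicate 2, 3 or 5, and Cast in 6 of 8 such fits. Stub1 and Cast also lost their calls with Ensembl features alone (0.13 and 0.15) and after the length and GC correction (-0.01 and 0.23), and Psma1 after the correction (0.14). Stub1 shares 42.3% of its exonic bases with other annotated genes. The list held 15 called genes without untreated replicate 7, and 4 without AAV9-LMNA replicate 2 or 3. Those fits called 10033 of 28153, 4216 of 26370 and 4227 of 26492 features, in that order.

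**Figure D5:**
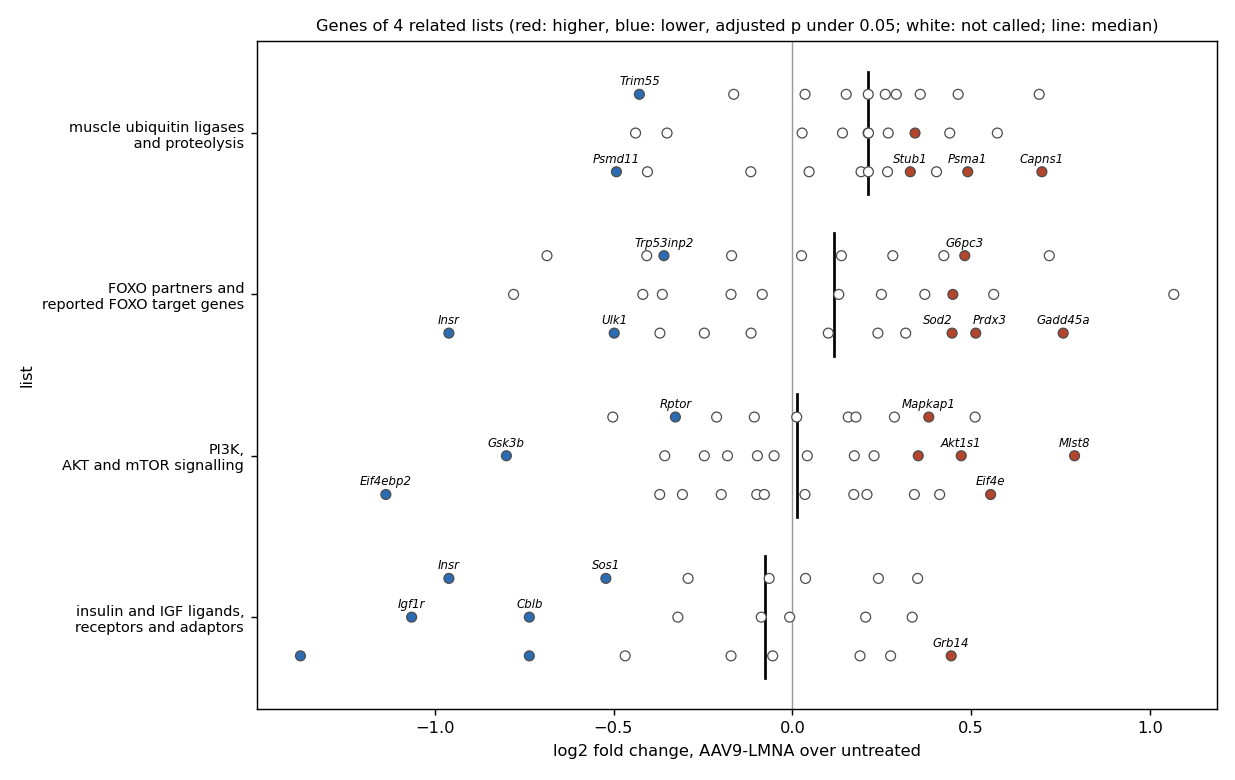
Log2 fold change (x axis) of the tested genes on the 4 lists but 2 that are not reported here (rows; the vertical offset within a row only separates points), red where called higher, blue where called lower and white where not called, with the median as a black line. In this test over all features calls go both ways in each list and the medians lie between -0.08 and 0.21; with Ensembl features alone the insulin and IGF list has 6 calls lower and 0 higher.

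Genes annotated within the span of the 10 genes gave no second reading. Of 7 such genes, in Fbxo32, Foxo1, Insr, Irs1 and Irs2, each is listed at 0 reads in all 8 libraries. So are 95.4% of 2774 antisense and 95.8% of 5248 lincRNA genes in these tables, in which reads that overlap a NONCODE gene as well are set aside as ambiguous; NONCODE positions were not used here, so how many reads of the 10 genes were set aside the same way is not known.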

How the data were processed

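Each library has 1 deposited table of unnormalized counts for each gene, which the authors made with HTSeq without strand over Ensembl and NONCODE version 5 genes, per the file headers and names; TopHat2, HTSeq, edgeR and limma and the builds GRCm38 and mm10 are named, without versions or roles, per the submitters' processing notes. The 5 closing summary lines of each table entered neither library sizes nor tests. Symbols, positions and transcript lengths came from GENCODE M21 (GRCm38).

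Counts were filtered with filterByExpr, scaled by TMM over all features and tested with edgeR 4.0.16 in R 4.3.3 (robust quasi-likelihood, 1 term for the group, Benjamini-Hochberg adjustment over all 26717 features at 0.05). Intervals are 95% intervals from the standard error of that fit. The 10 genes, the 4 pathway lists and 9 marker lists were chosen with earlier results of these data known. Named besides the 10 were at most 4 called genes of each list in each direction, by p; exceptions are pointed out, and 2 listed genes, kept in the counts and medians, are not reported here. Alternatives were RLE scaling, DESeq2 1.42.0, limma-voom (limma 3.58.1), no filter, 1 CPM in 3 libraries, Ensembl features alone, a loess correction (span 0.5) for transcript length and GC content on Ensembl features, each library left out, and untreated replicates 6 and 8 left out together. Scripts were tested on simulated counts.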

Additional observations from a re-analysis of the deposited data

Results flagged for a closer look

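Trim63 in the AAV9-LMNA group had 1 library apart from the other 4: replicate 1 held 400.7 CPM, and its gap to the next library was 0.758 of the whole range of the group, above the 95% limit of 0.71 for 5 samples. The same test was run on 11 genes (the 10 and Lmna), and chance alone passes about 1 group in 20. Without AAV9-LMNA replicate 1 the log2 fold change of Trim63 was 0.05, not called (edgeR adjusted p = 0.816).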

How the results depend on the processing

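No paired analysis was possible because the groups share no replicate number. The count of features called, 6858, was 1967 with Ensembl features alone, 1113 after the length and GC correction, 2143 without untreated replicates 6 and 8, and 4216 to 10033 with each library left out. Of the 10 genes, 4 lower became 2 after the correction, 0 without untreated replicates 6 and 8, and 2 to 4 with each library left out; 0 higher became 1 with no filter (Fbxo32) and 1 without untreated replicates 6 and 8 (Trim63). Without those 2 replicates the called genes were 3 on the insulin and IGF list, 5 on the PI3-kinase list and 3 on the FOXO list, and after the correction 5 on the PI3-kinase and 2 on the FOXO list. With no filter the proteolysis list had 12. With each library left out the ranges were 4 to 9, 5 to 11, 6 to 15 and 4 to 15 for these lists in that order.

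Signs turned for genes that were not called. Foxo3 was 0.12 without untreated replicates 6 and 8. Foxo4 was -0.046 at 1 CPM in 3 libraries, -0.19 with Ensembl features alone, -0.22 after the correction, -0.066 without untreated replicates 6 and 8, and -0.040 to 0.066 with each library left out. Irs1 was 0.017 with RLE scaling, 0.017 with DESeq2, 0.032 with no filter, 0.15 after the correction, and -0.069 to 0.14 with each library left out. Trim63 was -0.065 with Ensembl features alone, -0.25 after the correction, and -0.022 to 0.35 with each library left out. Ensembl features alone and the correction moved the median feature by -0.19 and -0.24, and calls higher from 41.5% of all calls to 33.6% and 31.7%. The cause of these shifts was not tested.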
